A study of Mus musculus with 27 samples.

Results

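The data described here are the liver mRNA levels of 10 core circadian clock genes in female Balb/c mice: Bmal1, Clock, Per1, Per2, Per3, Cry1, Dbp, Tef, Nr1d1 and Nr1d2. The members were chosen by gene symbol through their Ensembl identifiers and by no cutoff on their values, though earlier results of these data were known. All 10 were found among the 55414 genes of the count table. All 10 also passed the low-count filter (10 counts or more on average), which left 14114 genes for testing. Mice received carbon tetrachloride (CCl4), a hepatotoxin that causes liver fibrosis, and were treated with 4-methylumbelliferone (4MU), an inhibitor of hyaluronan synthesis, or with small interfering RNA (siRNA) against the hyaluronan synthase Has2 in lipid nanoparticles (siHAS2-LNP). Whole-liver homogenate was sequenced from 27 mice in 8 groups.

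All mice were wild type and 8 weeks old at the start, and were kept in a light-dark cycle of 12 h each. The 4 groups without CCl4 received olive oil into the peritoneum, and these were the control (n = 4, with saline into the tail vein), 4MU (n = 3, by gavage), siLuc-LNP (n = 3, an siRNA against firefly luciferase in the same particles) and siHAS2-LNP (n = 3) groups. The other 4 groups received CCl4 for 2 weeks, alone (CCl4, n = 2) or with 4MU (CCl4+4MU, n = 4), siLuc-LNP (CCl4+siLuc-LNP, n = 4) or siHAS2-LNP (CCl4+siHAS2-LNP, n = 4). The 4MU dose was 600 mg/kg daily, and the first siRNA dose of 1 mg/kg was followed by doses of 0.5 mg/kg; both treatments began 2 days before CCl4. The labels name no tail vein injection for the 4MU, CCl4 and CCl4+4MU mice and no gavage for the other groups. The methods of the study, in contrast, state that control mice had a gavage of the carboxymethyl cellulose vehicle. They do not say which of the groups here that covers. The route of dosing and the agent therefore cannot be fully told apart. The hour at which each liver was taken is not given in the sources used here.

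The circadian clock is a loop of transcription factors that runs in nearly every cell. BMAL1 and CLOCK bind E-box sequences as a pair and switch on the Per and Cry genes, whose proteins then block that pair, and also Nr1d1, Nr1d2, Dbp and Tef. The receptors encoded by Nr1d1 and Nr1d2 repress Bmal1 through RORE sequences, and DBP and TEF activate genes that carry D-box sequences. In the liver, transcripts of the loop rise and fall over the day, with Bmal1 and Dbp peaking at opposite phases, and the loop times much of the metabolism of lipids, bile acids and foreign compounds.

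The short stretches of promoter below show the letters that tie the members into this loop, with the motif in capitals. They come from RefSeq on build GRCm38.p6, whose table covers 250 bases before to 50 bases after a gene's start and held 14 such windows for 9 members. The E-box searched was CACGTG. Its common variant was CACGTT, which reads as AACGTG on the other strand. The D-box was TTATGTAA, and the core of the RORE was TAGGTCA. Both strands were searched, and no 2 of the matches shared a base.
Per1, E-box 166 bases before the start, plus strand, chr11:69098771-69098800: agcacccaagtcCACGTGcagggatgtgtg
Cry1, E-box 60 bases before the start, minus strand, chr10:85185097-85185126: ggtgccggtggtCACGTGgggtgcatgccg
Tef, E-box 127 bases before the start, plus strand, chr15:81802534-81802563: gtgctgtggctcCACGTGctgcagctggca
Nr1d1, E-box variant 28 bases before the start, minus strand, chr11:98775388-98775417: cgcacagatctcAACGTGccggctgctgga
Per3, D-box 205 bases before the start, minus strand, chr4:151044852-151044881: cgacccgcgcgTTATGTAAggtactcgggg
Per3, D-box 158 bases before the start, minus strand, chr4:151044805-151044834: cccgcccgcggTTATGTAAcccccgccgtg
Bmal1, RORE core 31 bases after the start, plus strand, chr7:113207530-113207558: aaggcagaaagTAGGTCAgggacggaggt
Of all 32851 windows in the table, 7.15% held CACGTG, 4.68% held CACGTT, 0.938% held TTATGTAA and 2.61% held TAGGTCA. Among the 9 members with a window, the E-box was found for 3, its variant for 2, the D-box for 1 and the RORE core for 1. A second start of Tef had an E-box at 138 bases before it, and Cry1 also had the E-box variant at 79 bases before its start. The first bases after the start of the Nr1d1 window were not found in a GENCODE transcript, while those of every other member window were. The distance given for Nr1d1 rests on that unmatched start. All these matches describe the letters only and say nothing about binding in these livers.

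Library totals ran from 7044386 to 29425937 counts on genes. The shallowest library was that of CCl4+siHAS2-LNP replicate 4, and all others lay at or above 18146198 counts. Levels are given as CPM, counts scaled to a common library total after TMM correction of the totals, and the lowest count behind any member's value was 13, for Dbp. Hepatocyte markers had summed levels of 72400 to 195000 CPM over the 27 mice, above those of every other marker list read here. Has2, the siRNA target, had at most 2 counts in any library and was not among the tested genes, so its counts could not check the siRNA labels.

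Bmal1 (ENSMUSG00000055116, GRCm39 chr7:112806152-112914735) encodes the partner of CLOCK without which the loop stops. Bmal1 in the control livers was at 5.03, 12.2, 20.3 and 7.35 CPM. In the 4MU livers it was at 6.81, 24.2 and 28.7 CPM, in the siLuc-LNP livers at 6.68, 24.8 and 13.6 CPM, and in the siHAS2-LNP livers at 16.2, 18.1 and 9.2 CPM. Mice of 1 group without CCl4 therefore differed by up to 4.22-fold, and all 4 of these groups overlapped. With CCl4 alone Bmal1 stood at 8.22 and 8.39 CPM, and with CCl4+4MU at 8.3, 20.5, 11.1 and 4.87 CPM. In the CCl4+siLuc-LNP livers it was at 25.4, 32.6, 12.2 and 16.0 CPM, and in the CCl4+siHAS2-LNP livers at 11.7, 27.8, 31.4 and 28.9 CPM. The order of mean Bmal1 levels ran from 8.3 ± 0.123 CPM (SD, n = 2) with CCl4 to 25 ± 8.95 CPM (SD, n = 4) with CCl4+siHAS2-LNP. The other 6 group means lay between 11.2 and 21.5 CPM, closer to their neighbours than their SDs of 4.69 to 11.6 CPM. Clock (ENSMUSG00000029238, GRCm39 chr5:76342860-76452846) was the steadiest member, at 18 to 53 CPM over the 27 mice, a 2.94-fold range.

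The Per and Cry genes encode the repressors of the BMAL1 and CLOCK pair. Per2 (ENSMUSG00000055866, GRCm39 chr1:91343700-91387069) ranged from 3.84 to 36.2 CPM, and both extremes were mice of the 4MU group. Per3 (ENSMUSG00000028957, GRCm39 chr4:151081373-151129140), an accessory member of the family, ranged from 1.56 to 44.6 CPM, which is 28.6-fold. Within the 4MU group alone Per3 stood at 38.3, 1.56 and 3.09 CPM. Cry1 (ENSMUSG00000020038, GRCm39 chr10:84967560-85021252), the main cryptochrome repressor with Cry2, had a narrower range of 3.88 to 16.9 CPM.

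Per1 (ENSMUSG00000020893, GRCm39 chr11:68986035-69002300), a Period gene that also answers directly to hormones such as glucocorticoids, was the member whose levels followed the groups most. Per1 in the CCl4+4MU livers was at 27.6, 31.1, 30.1 and 32 CPM. In the CCl4 livers it was at 11.3 and 6.36 CPM, in the CCl4+siLuc-LNP livers at 2.58, 4.09, 17.4 and 8.62 CPM, and in the CCl4+siHAS2-LNP livers at 4.42, 6.63, 8.7 and 5.07 CPM. The 4 CCl4+4MU mice stood above all 10 other mice given CCl4. Without CCl4, Per1 was at 11.2, 8.61, 12.5 and 34.7 CPM in control livers and at 24.1, 5.35 and 7.74 CPM in 4MU livers. It was at 16.3, 7.63 and 8.34 CPM in siLuc-LNP livers and at 13.1, 5.09 and 15.5 CPM in siHAS2-LNP livers. Of these mice, control replicate 4 was above the CCl4+4MU mice, and none of the others reached their lowest value.

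Nr1d1 (ENSMUSG00000020889, GRCm39 chr11:98658752-98666188) and Nr1d2 (ENSMUSG00000021775, GRCm39 chr14:4230545-4266624) encode the REV-ERB receptors, haem-binding repressors of Bmal1. Nr1d1 was at 118.0, 70.4, 63.0 and 62.1 CPM in control livers and at 59.4, 52.1 and 95.1 CPM in siLuc-LNP livers. In the CCl4+siLuc-LNP livers it was at 14.8, 13, 50.9 and 24.3 CPM, and in the CCl4 livers at 28.4 and 44.6 CPM. The highest CCl4+siLuc-LNP mouse was at 50.9 CPM and the lowest siLuc-LNP mouse at 52.1 CPM. How many of all tested genes part these small groups was not counted. The remaining Nr1d1 levels were 20.8 to 71.9 CPM with 4MU, 18.5 to 70.3 CPM with siHAS2-LNP, 52.6 to 89.3 CPM with CCl4+4MU and 19.0 to 98.0 CPM with CCl4+siHAS2-LNP. Nr1d2 ran from 13.5 CPM in a CCl4+siLuc-LNP mouse to 89.1 CPM in a 4MU mouse.

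Dbp and Tef encode the PAR bZIP activators, the arm of the loop that drives output genes. Dbp (ENSMUSG00000059824, GRCm39 chr7:45354512-45359627) was at 99.0, 24.4, 9.51 and 68.8 CPM in control livers and at 76.4, 1.17 and 2.18 CPM in 4MU livers. In siLuc-LNP livers it was at 51.1, 2.62 and 41.7 CPM, and in siHAS2-LNP livers at 7.75, 2.17 and 23.9 CPM. Each of these groups held mice that differed by a large factor, 65.3-fold in the 4MU group. With CCl4 alone Dbp was at 32.1 and 11.3 CPM, and with CCl4+4MU at 69.8, 14.4, 32.6 and 67.5 CPM. It was at 2.82, 0.732, 25.5 and 7.37 CPM with CCl4+siLuc-LNP and at 47.4, 5.36, 1.0 and 1.73 CPM with CCl4+siHAS2-LNP. Over the 27 mice Dbp spanned 135-fold, and its group means, from 9.12 ± 11.3 CPM (SD, n = 4) with CCl4+siLuc-LNP to 50.4 ± 41 CPM (SD, n = 4) in controls, had SDs of 11.3 to 43.2 CPM. Tef (ENSMUSG00000022389, GRCm39 chr15:81686622-81711064) ranged from 24.3 to 172.0 CPM, with the highest and a low value of 29.9 CPM both in the 4MU group.

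**Figure D1:**
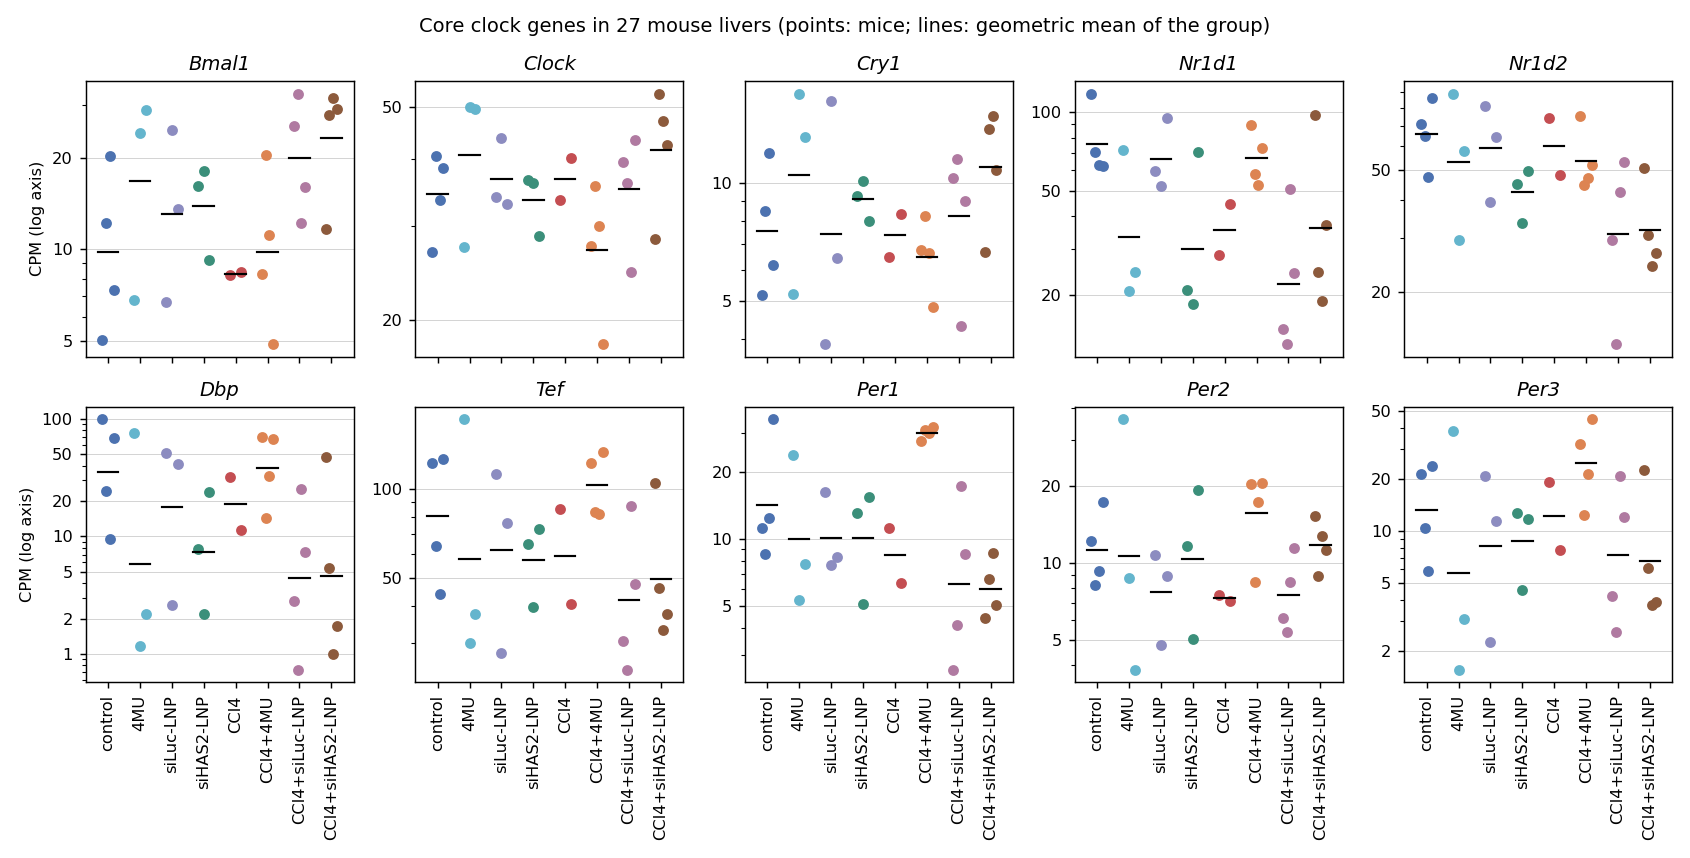
Levels of the 10 core clock genes (vertical axes, CPM, log scale) in the 8 groups (horizontal axis). Each point is 1 mouse and each line the geometric mean of its group. In nearly every panel the groups overlap, with Dbp spread over 135-fold, while the 4 CCl4+4MU points of Per1 sit together at 27.6 to 32 CPM above the other mice given CCl4.

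Levels can be compared between genes per kilobase of exon. On that scale the median over 27 mice was highest for Nr1d1, at 16.1 CPM per kb, followed by Tef at 7.86, Nr1d2 at 5.33 and Dbp at 4.15 CPM per kb. The other 6 members lay between 1.11 CPM per kb for Per3 and 2.09 CPM per kb for Clock, and their ranges over mice overlapped. Some members share exon bases with a gene on the opposite strand, 2047 bases between Clock and Tmem165 and 1694 between Nr1d1 and Thra being the longest stretches with a counted gene. The strand setting of the counting is not given in the sources used here, so part of those members' counts may belong to the partner.

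The clock genes differed far more between mice of 1 group than a typical liver gene. The pooled SD within groups was 2.05 for Dbp on the log2 CPM scale, where the median of all tested genes was 0.297. Dbp ranked 2 of 14114 genes by this spread, after Dmbt1, a secreted mucosal protein gene, and Per3 ranked 40 with an SD of 1.33. Tef (0.815), Per1 (0.80), Bmal1 (0.789), Nr1d1 (0.77) and Per2 (0.747) followed, at percentiles of 95.7 to 97.3 among tested genes. Cry1 was at percentile 89.8, Nr1d2 at 86.4 and Clock at 60.9. The spread was present with and without CCl4: the SD of Dbp was 3.2 in the 4MU group, 2.41 in the CCl4+siHAS2-LNP group and 1.52 among controls. The share of a member's variation in log2 CPM that lay between groups was 20.1% for Cry1 to 54.8% for Per1, where the median of all tested genes was 50%. For 9 of the 10 members, all but Per1, that share was below 50%.

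**Figure D2:**
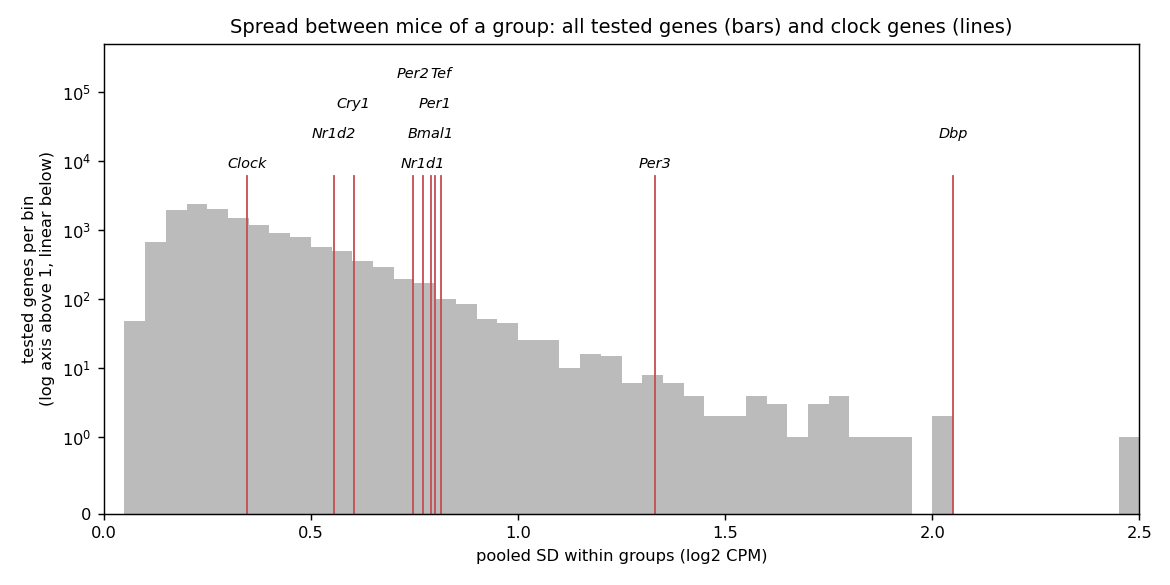
Number of tested genes (vertical axis, log scale above 1) by pooled SD within groups in log2 CPM (horizontal axis). Bars are the 14114 tested genes, with Dmbt1 placed in the last bar, and red lines mark the 10 clock genes. Dbp at 2.05 and Per3 at 1.33 stand far to the right, and Clock at 0.346 is near the bulk of genes.

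The members differed together from mouse to mouse. When each mouse was set against the mean of its own group in log2 CPM, Tef and Per3 lay on the same side as Dbp in 26 of 27 mice. Per2 and Nr1d2 did so in 24 mice, Per1 in 21 and Nr1d1 in 20. Bmal1 lay on the opposite side to Dbp in 24 of 27 mice, Cry1 in 22 and Clock in 21. The mice thus formed a series from high Dbp, Tef and Per3 with low Bmal1 to the reverse. The ratio of Dbp CPM to Bmal1 CPM, read here only between mice, ran from 0.0485 to 11.2 in the 4MU group and from 0.0225 to 2.1 in the CCl4+siLuc-LNP group. In the control group it ran from 0.469 to 19.7 and in the CCl4+4MU group from 0.701 to 13.9. It ran from 0.106 to 7.65 with siLuc-LNP, from 0.12 to 2.6 with siHAS2-LNP, from 1.35 to 3.91 with CCl4 and from 0.0319 to 4.04 with CCl4+siHAS2-LNP. All 8 ranges overlapped.

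**Figure D3:**
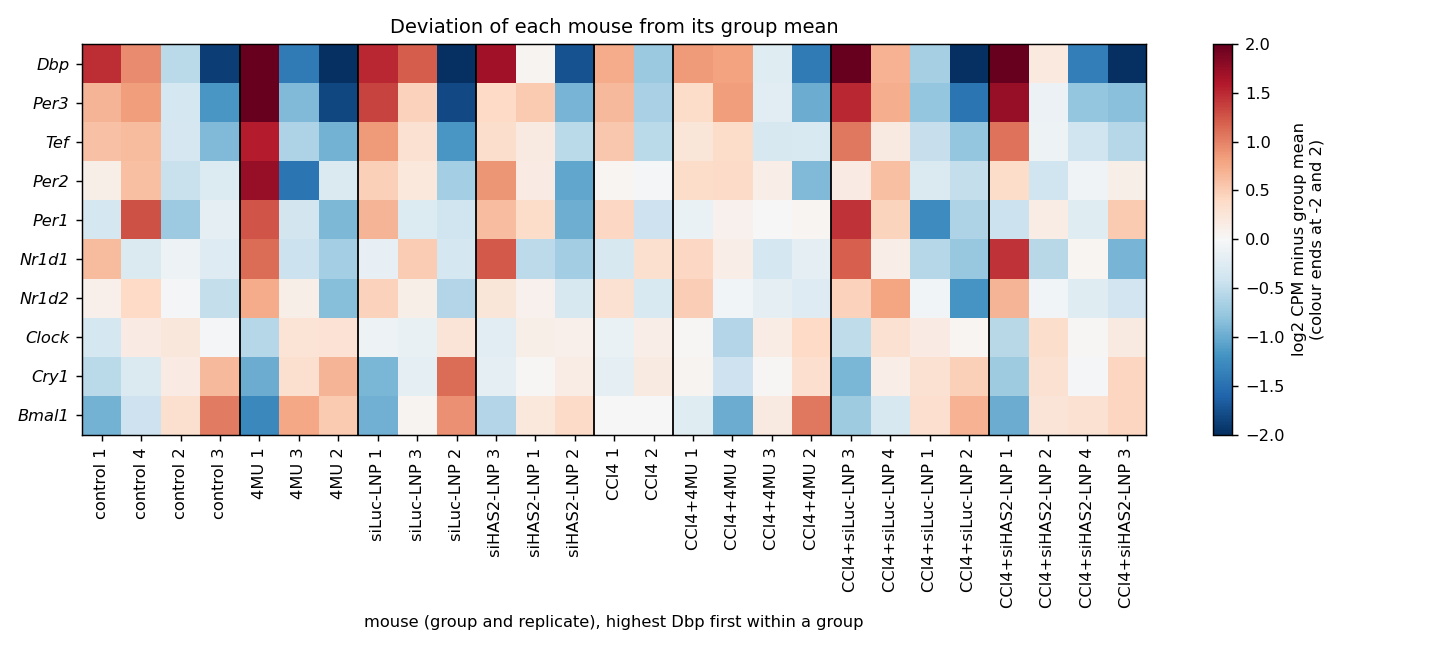
Deviation of each of 27 mice (columns, highest Dbp first within each group) from its group mean in log2 CPM for the 10 clock genes (rows). Red is above and blue below the group mean, with colour ends at -2 and 2. The upper 7 rows mostly change from red to blue within a group, least so Per1 and Nr1d1. The lower rows of Clock, Cry1 and Bmal1 mostly run the other way.

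Relations between 6 pairs of members were tested in the 13 mice without CCl4 and the 14 mice with CCl4, 12 relations in all, by two-sided permutation tests with 100000 resamples and Benjamini-Hochberg adjustment. Dbp and Bmal1 were opposed in mice without CCl4, with Pearson's r = -0.920 and Spearman's rho = -0.89 (permutation p = 3e-05 and 8e-05, adjusted p = 9e-05 and 0.000216). In mice with CCl4 the same pair gave r = -0.887 and rho = -0.895 (permutation p = 2e-05 and 6e-05, adjusted p = 8e-05 and 0.000216). Without the 2 mice farthest from the median of Dbp, r was -0.943 and -0.849. These mice came from different groups, and the relation was also seen on levels centred on the group means, at r = -0.926 and -0.858.

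Tef followed Dbp in mice without CCl4, with r = 0.941 and rho = 0.918 (permutation p = 1e-05, the smallest these resamples can give, and 3e-05, adjusted p = 6e-05 and 0.00018). In mice with CCl4 Tef and Dbp gave r = 0.951 and rho = 0.938 (permutation p = 1e-05 for both, adjusted p = 6e-05 and 0.00012). Without the 2 farthest mice r was 0.952 and 0.929.

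Nr1d1, the repressor of Bmal1, was opposed to Bmal1 with r = -0.671 and rho = -0.632 without CCl4 (permutation p = 0.0142 and 0.024, adjusted p = 0.0155 and 0.0261). With CCl4 the values were r = -0.694 and rho = -0.67 (permutation p = 0.00712 and 0.0104, adjusted p = 0.00854 and 0.0125). Without the 2 mice farthest in Nr1d1, r was -0.618 and -0.591. Nr1d1 and Dbp rose together, with r = 0.827 and rho = 0.83 without CCl4 (permutation p = 0.00081 and 0.00077, adjusted p = 0.00162 and 0.00132). With CCl4 they gave r = 0.843 and rho = 0.873 (permutation p = 0.00025 and 9e-05, adjusted p = 0.0006 and 0.000216), and r was 0.723 and 0.776 without the 2 farthest mice. Clock and Bmal1, the 2 activators, were related with r = 0.768 and rho = 0.709 without CCl4 (permutation p = 0.00258 and 0.00843, adjusted p = 0.00344 and 0.0125). With CCl4 they gave r = 0.755 and rho = 0.675 (permutation p = 0.00146 and 0.00988, adjusted p = 0.0025 and 0.0125), and r was 0.643 and 0.592 without the 2 farthest mice.

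Per1 and Per2 were related with r = 0.786 and rho = 0.846 without CCl4 (permutation p = 0.00167 and 0.00049, adjusted p = 0.0025 and 0.00098), and r was 0.793 without the 2 farthest mice. With CCl4 they gave r = 0.580 and rho = 0.565 (permutation p = 0.0334 and 0.0392, adjusted p = 0.0334 and 0.0392), and r was 0.617 without the 2 farthest mice. On levels centred on the group means this last relation was r = 0.306 (permutation p = 0.283) and did not pass.

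**Figure D4:**
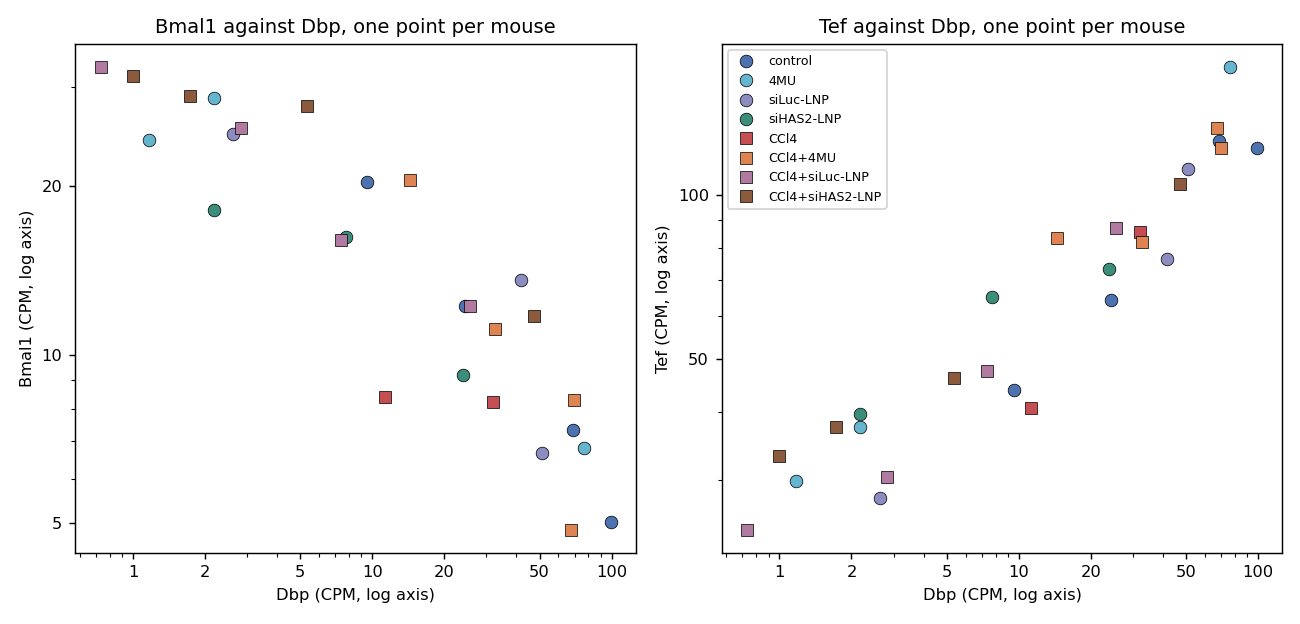
Bmal1 (left) and Tef (right) against Dbp, all in CPM on log axes, with 1 point for each of 27 mice. Circles are mice without CCl4 and squares mice with CCl4, coloured by group. Bmal1 falls as Dbp rises (r = -0.920 and -0.887) and Tef rises with Dbp (r = 0.941 and 0.951) in both sets, with mice of most groups spread widely along the line.

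How far the rest of the transcriptome followed the same axis was asked after the data had been seen, with log2 CPM of Dbp added to the model of the 8 groups. The edgeR quasi-likelihood F test, adjusted by Benjamini-Hochberg, called a slope on Dbp for 88 of 14113 genes, 0.624%, with 42 rising (0.298%) and 46 falling (0.326%). Of the 9 other members, 8 had a slope: 5 rose and 3 fell with Dbp. Per3 had the steepest, with 0.64 ± 0.0387 log2 units per log2 unit of Dbp (slope ± SE, adjusted p = 2.18e-10). Tef rose with a slope of 0.39 ± 0.0248, Nr1d1 with 0.31 ± 0.0447, Per2 with 0.28 ± 0.05 and Nr1d2 with 0.23 ± 0.0315. Bmal1 had a slope of -0.35 ± 0.0381 (adjusted p = 1.19e-05), Cry1 of -0.27 ± 0.0306 and Clock of -0.12 ± 0.0274. Per1 did not pass, with a slope of 0.25 ± 0.0675 (adjusted p = 0.108).

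Of 15 other clock genes, 4 had such a slope. Npas2, which can take the place of Clock, fell with Dbp by 0.60 ± 0.0571 per log2 unit, and Nfil3, the repressor at D-boxes, by 0.27 ± 0.0414. Ciart, a repressor of the BMAL1 and CLOCK pair, rose by 0.58 ± 0.0926 and Usp2, a deubiquitinase with a rhythmic transcript, by 0.46 ± 0.0719. Among 16 output genes the cell cycle inhibitor Cdkn1a had a slope, of -0.29 ± 0.0595, and among 10 genes of feeding and fasting Pdk4, an inhibitor of glucose oxidation, of -0.30 ± 0.0672. By the same edgeR test 0 of 8 glucocorticoid targets, 0 of 7 temperature genes and 0 of 34 cell type markers had a slope on Dbp, and 1, 3 and 0 of them had an unadjusted p under 0.05. The median slope over all tested genes was 0.000285.

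Outside the 10 members, the genes whose ranks over the 27 mice were most like those of Dbp, after centring on the group means, were Tns2 (Spearman's rho 0.904), Stbd1 (0.834), Usp2 (0.801), B4galt5 (0.80) and Ciart (0.791). Some members ranked among or above these, Tef at 0.955 and Per3 at 0.936 with Dbp and Cry1 at 0.912 with Bmal1. Outside the members, the genes most like Bmal1 were Npas2 (0.937), Lgalsl (0.922), Pdgfc (0.918), Clpx (0.887) and Chka (0.872). Tns2 encodes a focal adhesion protein, Stbd1 a glycogen-binding protein, Chka a choline kinase and Clpx a mitochondrial chaperone. These are descriptions over libraries that also share their group and depth, and without centring 1 of the 5 genes like Dbp and 3 of the 5 like Bmal1 remained in the lists.

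The comparisons of groups ask whether CCl4 or a treatment moved the clock genes. Averaged over the 4 arms, CCl4 changed 0 of the 10 members by edgeR's quasi-likelihood F test (adjusted p from 0.123 to 0.988), where 51.9% of all tested genes were called. At an unadjusted p under 0.05 the count was also 0, where 8089 of 14114 genes had such a p. By DESeq2 and by limma-voom after adjustment the count was 0 as well. Without the filter on low counts, when 31177 genes entered the edgeR fit, it was 2 here and between 1 and 5 in the 4 single arms. The share of all genes called in that fit is not given here or below. The members' log2 fold changes with CCl4 ran from -0.47 to 0.13 with a median of -0.19, where the median of all genes was -0.02. Their standard errors ran with their spread, from 0.124 for Clock to 0.646 for Dbp. Nr1d2 came nearest to the threshold, with a log2 fold change of -0.36 ± 0.192 (SE, adjusted p = 0.123), and for Dbp the value was -0.47 ± 0.646. A p above the threshold for a gene with so wide an error does not show that its level was the same.

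In livers without other treatment, CCl4 against control, 0 of 10 members were called (background 34.0%), and DESeq2 and limma-voom called 0. An unadjusted p under 0.05 was found for 0 of 10, beside 6191 of 14114 genes. Nr1d1 was at 28.4 and 44.6 CPM with CCl4 and at 62.1 to 118.0 CPM in controls. The share of all tested genes that part groups this small was not counted. The log2 fold change of Nr1d1 was -1.10 ± 0.642 (SE, adjusted p = 0.191 by edgeR), and 2 mice carried the CCl4 side. In the siLuc-LNP arm, CCl4+siLuc-LNP against siLuc-LNP, 0 of 10 were called by edgeR (background 24.2%), 0 by DESeq2 and 1 by limma-voom. An unadjusted p under 0.05 was found for 2 of 10, beside 5179 of 14114 genes. There Nr1d1, whose mice are given above, had a log2 fold change of -1.43 ± 0.539 (SE, adjusted p = 0.055). Nr1d2 had -0.83 ± 0.367 (adjusted p = 0.102) and Dbp -1.84 ± 1.26 (adjusted p = 0.3). Leaving out 1 library gave 1 member called for each of 6 libraries: 4MU replicate 1, siHAS2-LNP replicate 3, CCl4+siHAS2-LNP replicates 1 and 3, and CCl4+siLuc-LNP replicates 3 and 4. The shares of all genes called by limma-voom and in these fits are not given here, so these counts are no result about the members.

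In the 4MU arm, CCl4+4MU against 4MU, 0 of 10 members were called by edgeR (background 23.7%), 0 by DESeq2 and 6 by limma-voom with sample weights. An unadjusted p under 0.05 was found for 3 of 10, beside 5077 of 14114 genes. Clock was at 27.5, 35.6, 30.0 and 18 CPM with CCl4+4MU and at 27.3, 50 and 49.5 CPM with 4MU, groups that overlapped. Its log2 fold change was -0.61 ± 0.237 (SE, adjusted p = 0.0646). Per1 had 1.29 ± 0.556 (adjusted p = 0.0935) and Cry1 -0.84 ± 0.401 (adjusted p = 0.133). The 4MU group held 1 mouse, replicate 1, on the high side of Dbp and 2 on the low side, and without that mouse 7 members were called. The shares of all genes called by limma-voom and without that mouse are not given here. The count was 1 without CCl4+4MU replicate 2, CCl4+siHAS2-LNP replicate 1 or CCl4+siLuc-LNP replicate 3, also with no such share beside it. In the siHAS2-LNP arm, CCl4+siHAS2-LNP against siHAS2-LNP, 0 of 10 members were called (background 12.8%), and 0 by either other tool. An unadjusted p under 0.05 was found for 0 of 10, beside 3855 of 14114 genes. Log2 fold changes ran there from -0.84 for Per1 to 0.77 for Bmal1.

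**Figure D5:**
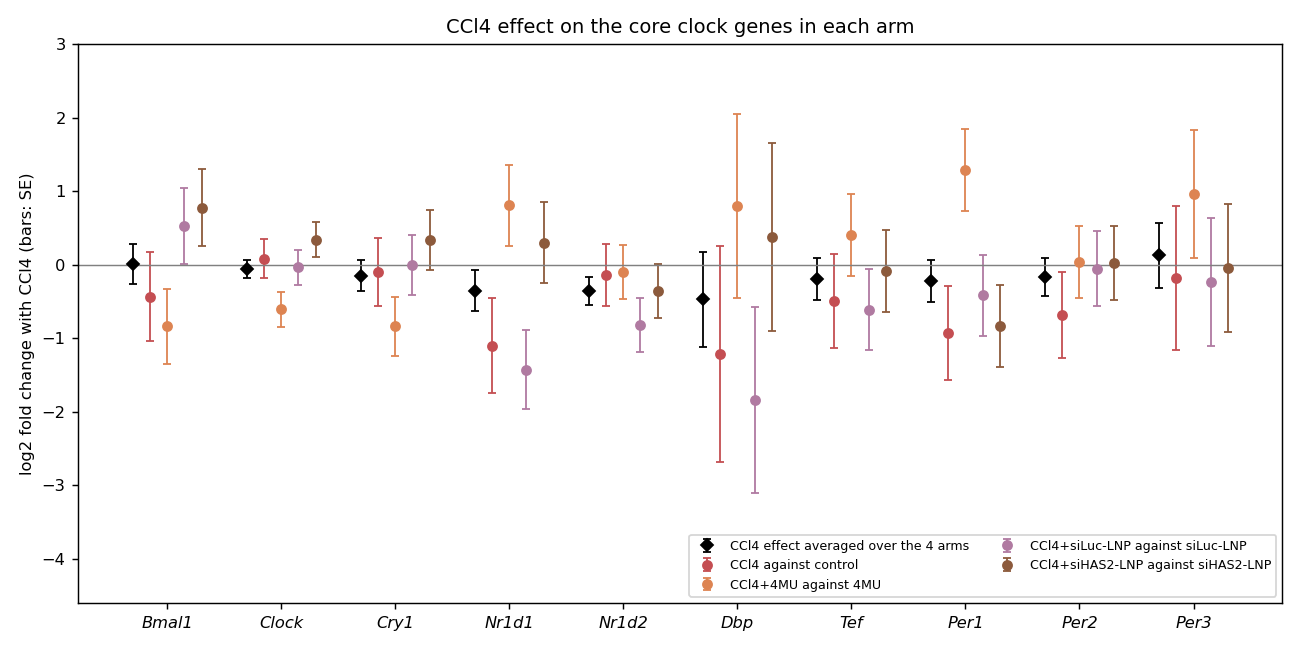
Log2 fold change with CCl4 (vertical axis, bars are SE) of the 10 clock genes in each arm and averaged over arms (black diamonds). Most bars cross or come close to 0, and the largest errors belong to Dbp, whose average was -0.47 ± 0.646.

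Without CCl4, the treatments against their controls called 0 of 10 members each by edgeR, DESeq2 and limma-voom, and 0 had an unadjusted p under 0.05. The background was 0.00709% for 4MU against control, 0.213% for siLuc-LNP against control and 0.0425% for siHAS2-LNP against siLuc-LNP. In the same order, 966, 960 and 1262 of 14114 genes had an unadjusted p under 0.05. The largest difference of the 4MU group was that of Nr1d1, at -1.0 ± 0.553 on the log2 scale (SE, adjusted p = 0.797). For siHAS2-LNP against siLuc-LNP, Dbp differed by -1.52 ± 1.36 (SE, adjusted p = 0.799). An F test across the 4 groups without CCl4 called 0 members (background 1.23%), with 0 at an unadjusted p under 0.05 and 0 by the other tools. Without the filter on low counts this F test called 2 members and 4MU against control called 1.

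Among mice given CCl4, the F test across the 4 groups called 1 of 10 members, Per1 (adjusted p = 0.00833), where 17.0% of all tested genes were called. Without the filter on low counts 8 members were called, a count with no share of all genes beside it. Over 35 alternative settings the adjusted p of this test stayed below 0.05, from 8.81e-16 to 0.0495. The level of Per1 was 30.2 ± 1.9 CPM (SD, n = 4) with CCl4+4MU, 8.84 ± 3.51 CPM (SD, n = 2) with CCl4, 8.17 ± 6.66 CPM (SD, n = 4) with CCl4+siLuc-LNP and 6.2 ± 1.9 CPM (SD, n = 4) with CCl4+siHAS2-LNP. The mice of the last 3 groups overlapped. Per1 was the 1 member of 10 whose CCl4+4MU mice did not overlap the 10 other CCl4 mice, a pattern that 1.14% of all tested genes had in either direction.

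In the comparison CCl4+4MU against CCl4, 0 of 10 members were called by edgeR (background 18.3%), 1 by DESeq2 and 0 by limma-voom. An unadjusted p under 0.05 was found for 1 of 10, beside 4777 of 14114 genes. Per1 had a log2 fold change of 1.78 ± 0.665 (SE, adjusted p = 0.0631) and Per2 of 1.19 ± 0.597 (adjusted p = 0.162). The count became 1 without control replicate 4, 4MU replicate 1 or CCl4+siLuc-LNP replicate 3. The shares of all genes called by DESeq2 and in these fits are not given here, so these counts are no result about the members. Further contrasts were added after the data had been seen. Against the mean of the other 3 CCl4 groups Per1 was higher by 1.98 ± 0.407 (log2, SE, adjusted p = 0.00787 by edgeR), where 11.7% of all genes were called. Against CCl4+siHAS2-LNP the difference was 2.26 ± 0.53 (adjusted p = 0.0345, background 1.22%), and against CCl4+siLuc-LNP it was 1.91 ± 0.517 (adjusted p = 0.0693, background 0.623%).

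Some of the other lists were read in CCl4+4MU against CCl4, where 18.3% of all tested genes were called and Per1 did not pass. Of 8 glucocorticoid targets, 2 were higher with CCl4+4MU than with CCl4: Tat, a tyrosine-degrading enzyme, by 1.80 ± 0.477 and Mt1, a metallothionein, by 2.26 ± 0.765 (log2, SE, adjusted p = 0.0119 and 0.0417 by edgeR). Fkbp5, another of the 8, was not called (0.341 ± 0.311, adjusted p = 0.461). Of the temperature genes Hsp90aa1 was lower, at -1.7 ± 0.291 (adjusted p = 8e-04 by edgeR), and no other tested one was called. All 3 markers of dividing cells were lower, with a median of -2.05, and 2 of 5 hepatocyte markers were higher. Of 5 monocyte and macrophage markers 1 was called, Ccr2, lower at -1.16 ± 0.392 (adjusted p = 0.0414 by edgeR). Ly6c2, Cd68 and Itgam had values below 0 that did not pass. Lyz2 went the other way, at 1.03 ± 0.378 (adjusted p = 0.0584 by edgeR). The summed level of this list was 252 to 478 CPM with CCl4+4MU and 177 to 234 CPM with CCl4. Of the 21 stellate cell, Kupffer cell, sinusoidal endothelium, ductal and lymphocyte markers, 0 were called by edgeR. An unadjusted p under 0.05 was found for 5 of these 21, beside 4777 of 14114 genes. Their part in the level of Per1 was not tested, and in bulk liver fewer cells of a type and less RNA per cell cannot be told apart.

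The remaining comparisons among CCl4 mice showed less. For CCl4+siLuc-LNP against CCl4, 0 of 10 members were called (background 0.248%), and DESeq2 and limma-voom called 0. An unadjusted p under 0.05 was found for 1 of 10, beside 2001 of 14114 genes. Bmal1 there had a log2 fold change of 1.38 ± 0.624 (SE, adjusted p = 0.318 by edgeR), with 2 mice on the CCl4 side. For CCl4+siHAS2-LNP against CCl4+siLuc-LNP, the comparison of the Has2 siRNA with its own control, 0 of 10 were called (background 1.09%), and 0 by the other tools. An unadjusted p under 0.05 was found for 0 of 10, beside 2349 of 14114 genes. Log2 fold changes ran from -0.36 for Per1 to 0.81 for Nr1d1, whose mice overlapped at 19.0 to 98.0 and 13 to 50.9 CPM.

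Interaction terms asked whether the CCl4 effect differed between arms. For 4MU, 0 of 10 members were called by edgeR (background 5.67%), 0 by DESeq2 and 1 by limma-voom, and the count was 1 without 4MU replicate 1. The shares of all genes called by limma-voom and without that mouse are not given here. An unadjusted p under 0.05 was found for 2 of 10, beside 3603 of 14114 genes. Per1 had the lowest adjusted p, with an interaction of 2.23 ± 0.853 (log2, SE, adjusted p = 0.106). For siLuc-LNP the count was 0 (background 0.00709%), with 0 at an unadjusted p under 0.05 (1411 of 14114 genes). For siHAS2-LNP against siLuc-LNP it was 0 (background 0.0354%). There 1 member had an unadjusted p under 0.05 (1612 of 14114 genes), Nr1d1 at 1.73 ± 0.772 (adjusted p = 0.397). DESeq2 and limma-voom called 0 in both of the last interactions.

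With log2 CPM of Dbp as a covariate, an alternative chosen after the data were seen, both the values and the errors of other members changed. The SE of the CCl4 effect on Per3 averaged over arms fell to 0.134 from 0.445. In that fit 2 of 9 members were called for CCl4 averaged over arms (background 52.3%): Per3 at 0.45 ± 0.134 and Nr1d2 at -0.31 ± 0.109 (log2, SE, adjusted p = 0.00677 and 0.0195 by edgeR). In CCl4+siLuc-LNP against siLuc-LNP, 2 were called (background 23.5%), Per3 at 1.05 ± 0.275 and Nr1d1 at -1.02 ± 0.321 (adjusted p = 0.00773 and 0.0228). The covariate turned the sign of Per3 there, which without it was -0.24 ± 0.865 (log2, SE) and did not pass. Averaged over arms Per3 without the covariate was 0.13 ± 0.445. In CCl4+4MU against CCl4, 1 was called (background 17.1%), Per1 at 1.58 ± 0.539 (adjusted p = 0.0451). These values compare mice at equal Dbp, which is itself a member of the loop.

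Other genes of the pathway were read from a list of 15. For CCl4 averaged over arms, 9 of these 15 were called by edgeR beside 51.9% of all genes, 3 higher and 6 lower, with a median of -0.01. Bhlhe41, a repressor at E-boxes, rose by 1.37 ± 0.284 and Timeless, which also serves DNA replication, by 1.07 ± 0.131 (log2, SE, adjusted p = 0.000285 and 2.49e-07). Bhlhe40, the partner of Bhlhe41, fell by 0.71 ± 0.216 on the log2 scale. Rora, an activator of Bmal1, fell by 0.51 ± 0.118, and the repressor Cry2 fell by 0.43 ± 0.14. The 3 dividing cell markers rose as well, with a median of 4.25.

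Of 16 clock output genes, 9 were called beside the same 51.9% of all genes, 3 higher and 6 lower, with a median of -0.23. The fatty acid elongase Elovl3 fell by 5.73 ± 0.53 and the cytochrome Cyp2a5 by 5.41 ± 0.269 on the log2 scale (SE, adjusted p = 3.83e-09 and 3.25e-14 by edgeR). Nr1i3, the receptor for foreign compounds known as CAR, fell by 1.30 ± 0.178. Cdkn1a rose by 2.11 ± 0.281, Tsku, a secreted proteoglycan, by 0.86 ± 0.349, and Wee1, an inhibitor of entry into mitosis, by 0.74 ± 0.24. For the activators of the output arm the values were -0.47 ± 0.646 for Dbp and -0.20 ± 0.287 for Tef, neither past the threshold.

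Lists of genes that answer to hormones, temperature and feeding were read beside the clock. For CCl4 averaged over arms, 5 of 8 glucocorticoid targets were called by edgeR, 2 higher and 3 lower, where 51.9% of all tested genes were called. Pck1, of glucose synthesis, fell by 1.01 ± 0.236 and Mt1 by 0.92 ± 0.315, and the transcription factor Zbtb16 rose by 0.74 ± 0.189 (log2, SE). Of 7 tested temperature genes 4 were called, with Rbm3, a cold-inducible protein, up by 0.96 ± 0.139, Hsp90aa1 up by 0.42 ± 0.138 and Hsph1 down at -0.43 ± 0.17. Of 10 genes of feeding and fasting 4 were called, with Igfbp1 up by 1.65 ± 0.371, Fasn at -1.11 ± 0.425 and G6pc1 at -0.96 ± 0.264.

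Cell type markers were read for CCl4 averaged over arms in the same mice, beside the 51.9% of all genes called. Called were 3 of 5 hepatocyte markers (1 higher), 4 of 4 Kupffer cell markers (all lower), 5 of 5 monocyte and macrophage markers (all higher) and 4 of 5 stellate cell markers (3 higher). So were 3 of 4 sinusoidal endothelium markers (2 higher), 4 of 4 ductal markers (all higher), 2 of 4 lymphocyte markers (both lower) and 3 of 3 dividing cell markers (all higher). Their summed level ranged from 89.1 to 347.0 CPM with CCl4 and from 149.0 to 450.0 CPM without it for Kupffer cells, and from 31.7 to 456.0 CPM against 1.23 to 23.8 CPM for dividing cells. For monocytes and macrophages it was 95.4 to 478.0 CPM against 39.6 to 179.0 CPM, for stellate cells 169.0 to 499.0 CPM against 153.0 to 324.0 CPM, and for ductal cells 5.8 to 121.0 CPM against 3.25 to 11.6 CPM. The highest ductal sum lay in the CCl4+4MU group, and the other CCl4 groups reached at most 23.3 CPM. Median ductal sums were 14.7 CPM with CCl4 and 6.72 CPM without it. The sums with and without CCl4 were 60.7 to 143.0 and 51.6 to 145.0 CPM for sinusoidal endothelium and 1.07 to 3.29 and 1.6 to 6.24 CPM for lymphocytes. No marker was at 0 in all mice.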

How the data were processed

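Total liver mRNA was selected by poly(A), made into libraries with a strand-keeping kit and sequenced as paired ends. Per the labels, the authors trimmed reads with Trimmomatic 0.39, aligned them with HISAT2 to GRCm39 and counted them per gene with featureCounts. The deposited values are whole-number counts of reads per gene, not normalized. Here they were tested with edgeR 4.0.16 in R 4.3.3: TMM scaling, a mean of at least 10 counts, 1 quasi-likelihood fit of the 8 groups, and Benjamini-Hochberg adjustment over all 14114 tested genes at 0.05. Standard errors were derived from the log2 fold change and the F statistic. CPM used TMM-scaled totals, and log2 CPM a prior count of 2. DESeq2 1.42.0 and limma-voom (limma 3.58.1) with sample weights were alternatives, with other scalings, filters and fits and each library left out. Scripts were tested on simulated data. The members and lists were chosen with earlier results of these data known.

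Named genes were all 10 members, up to 6 each of the other clock genes and clock outputs and up to 3 each of the hormone, temperature and feeding lists with the largest change past the threshold for CCl4 averaged over arms, and the 5 genes most like Dbp and Bmal1. Genes named outside this rule, those with a slope on Dbp and Tat among them, were chosen after their values were seen. A gene that the rule names is not reported here. Of 55414 genes, 54749 matched GENCODE vM39, which is on the build of the counts. Library totals ran from 7044386 to 29425937 counts. Replicates were separate mice per the labels, and the 34 pairs of mice within groups differed beyond counting noise (chi-square per degree of freedom from 16.9 to 471).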

Additional observations from a re-analysis of the deposited data

Results flagged for a closer look

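Single mice stood far from the rest of their group in 4 of 40 checks, each of 1 member in 1 of the 4 groups with 4 mice. The check compares the gap between an extreme mouse and its nearest neighbour with the range of the group. For normally distributed and independent values chance flags about 1 in 20 such checks. Here the check was run on CPM, not on the log scale, and the members vary together in the same mice. The 4 flags therefore cannot be set against that rate. CCl4+siHAS2-LNP replicate 1 had Dbp at 47.4 CPM beside a next highest of 5.36 CPM, and the same mouse had Per3 at 22.6 CPM beside 6.14 CPM. Control replicate 1 had Nr1d1 at 118.0 CPM where the next control was at 70.4 CPM. Control replicate 4 had Per1 at 34.7 CPM where the next control was at 12.5 CPM.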

How the results depend on the processing

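Counts of members called moved from 0 under several settings. Except for the Dbp covariate, the shares of all genes called under these settings are not given here. The counts below therefore describe the settings and are no result about the members. The direction of the member nearest to the threshold in each comparison did not reverse in any of them; the other members were checked for direction only with Dbp as a covariate. With DESeq2 the count was 1 for CCl4+4MU against CCl4. With limma-voom it was 6 for CCl4+4MU against 4MU and 1 each for CCl4+siLuc-LNP against siLuc-LNP and the 4MU interaction. Without the filter on low counts (31177 genes) it was 2 for CCl4 averaged over arms and for CCl4 against control, 5, 3 and 1 in the 4MU, siLuc-LNP and siHAS2-LNP arms, 1 for 4MU against control, 3 for CCl4+4MU against CCl4, 1 for CCl4+siLuc-LNP against CCl4, 2 for the 4MU and 1 for the siHAS2-LNP interaction, and 2 and 8 for the F tests without and with CCl4. When the fit held the compared groups alone it was 1 for CCl4 against control, 1 for CCl4+4MU against 4MU and 2 for CCl4+4MU against CCl4. With Dbp as a covariate, added after seeing the data, it was 2, 2 and 1 for CCl4 averaged over arms, CCl4+siLuc-LNP against siLuc-LNP and CCl4+4MU against CCl4. That covariate turned the sign of 42 of 126 values of the 9 other members, 1 of them called with it, Per3 in CCl4+siLuc-LNP against siLuc-LNP, at 1.05 with it and -0.24 without, and 0 called by edgeR without it. Leaving out 1 library gave 0 to 7 for CCl4+4MU against 4MU, and 0 to 1 for CCl4+siLuc-LNP against siLuc-LNP, for CCl4+4MU against CCl4 and for the 4MU interaction. The relation of Per1 and Per2 with CCl4 was r = 0.306 when centred on groups. The causes were not tested.

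Over all tested genes the replicate numbers did not pair the mice. For 83 pairs of mice that shared a number, the correlation of deviations ran from -0.32 to 0.293. The clock genes did differ by number. In every group, replicate 2 lay above the group mean for Bmal1, by 0.015 to 1.0571 in log2 CPM, and below it for Per3 and Tef. Its Dbp was also below the mean, except with CCl4+siHAS2-LNP (0.1944 above). Replicate 1 lay above the group mean for Dbp, Tef and Per3 in every group but CCl4+siLuc-LNP. Its Bmal1 was below the mean except with siHAS2-LNP (0.2185 above) and CCl4+siLuc-LNP (0.3394 above). These patterns were not tested, and their cause is not known. With the replicate number as a block, the count was 1 for CCl4 averaged over arms and 1 for CCl4+siLuc-LNP against siLuc-LNP, and it changed no other count. The CCl4 group had 2 mice, and where 1 was left out the lone mouse was assumed to vary like the other groups. The SEs of Dbp limit what any group comparison of it can show.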
